A study of Mus musculus with 8 samples.

Results

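NF-kB is a family of transcription factors that drives much of the inflammatory gene expression of macrophages. Its subunits pair into dimers, which inhibitory proteins of the IkB family hold in the cytosol until a kinase complex marks the inhibitor for destruction. The freed dimers enter the nucleus and switch on inflammatory genes together with several of their own inhibitors, which closes a negative feedback loop. The genes described here are 5 subunits (Nfkb1, Nfkb2, Rel, Rela and Relb) and 5 inhibitors or feedback regulators (Nfkbia, Nfkbie, Nfkbiz, Tnfaip3 and Bcl3). They were chosen by symbol, and each was read from the probe set with the highest mean signal over the 8 arrays among those mapped to that gene alone. Of the 10 genes 9 were measured, among 13070 genes in all, and Nfkb1 was not analysed here. The 9 genes had 18 probe sets, and all 18 passed the filter on low values (a signal above the array's median on at least 2 arrays).

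The RNA came from mammary gland macrophages, sorted by staining for Cd11b after 45 minutes of digestion with collagenase A at 2 mg/ml. Cd11b is also carried by neutrophils, monocytes and some other leukocytes. The transgenic donors were MMTV-iFGFR1 females, which carry an inducible fibroblast growth factor receptor 1 driven by the promoter of mouse mammary tumour virus, which is used to drive genes in mammary epithelium. The controls were littermates without the transgene. All mice were inbred FVB, 6 weeks old when treated, and all were injected with the dimerizer that activates the receptor, so the controls carry the drug exposure too. The 4 groups are control and transgenic at 48 hours and control and transgenic at 4 weeks of dimerizer, with 2 arrays each, and each array holds RNA pooled from 3 mice. The labels do not say how the pools of a group relate beyond their number, so p-values measure the spread between these pools.

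Several arrays stood apart or carry a doubt. For transgenic 4 weeks pool 2 the description field speaks of non-transgenic mice, which conflicts with 3 of its other labels (title, source and genotype), and it is kept here as transgenic. The ratio of 3' to 5' beta-actin signal, a measure of shortened RNA, reached 37.0 on control 4 weeks pool 2, where the other 7 arrays had 6.84 to 13.9. Control 4 weeks pool 1 held the lowest signal of 7 of the 9 genes. Main results at 4 weeks are also given without these 3 arrays. All 10 macrophage markers listed were measured, with 68311 to 93065 units for Csf1r, the receptor of the main macrophage growth factor, and 9842 to 14627 for Adgre1. Fibroblast genes were high as well, with 13130 to 32565 units for Col3a1 and 12024 to 31116 for Dcn, so the RNA was not of macrophages alone. Itgam, which encodes Cd11b, gave 46.8 to 545. Fgfr1 gave 581 to 1853 units, which does not check a transgene that is driven in epithelium. The values are linear MAS5 signals that the authors scaled to 1 common mean, and the number of arrays limits their precision.

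RefSeq promoter windows, from 250 bases before to 50 after a start site (build GRCm38.p6), matched 7 of the 9 measured genes with 10 windows. Relb and Nfkbiz had none. The kB consensus, the DNA element that NF-kB dimers bind, was searched on both strands and lay in 8 of the 10 windows, which belong to 6 of the 7 genes. It lay in 4.51% of the 32851 windows of all genes. The looser motif GGNNNTTCC, some of whose matches overlap those of the consensus, lay in 9 of the 10 windows and in 18.5% of all. The Rela window held neither, and the Bcl3 match to the consensus lies after the start site. The stretches that follow are shown because they place such letters directly upstream of 3 feedback inhibitors and 2 subunits. Capitals mark matches to either motif, and a match is a description, not a binding site.
Nfkbia: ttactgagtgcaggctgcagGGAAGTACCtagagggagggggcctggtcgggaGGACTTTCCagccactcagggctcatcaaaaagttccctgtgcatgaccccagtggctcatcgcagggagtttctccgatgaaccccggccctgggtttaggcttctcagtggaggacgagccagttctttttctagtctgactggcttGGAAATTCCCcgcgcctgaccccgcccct
Nfkbie: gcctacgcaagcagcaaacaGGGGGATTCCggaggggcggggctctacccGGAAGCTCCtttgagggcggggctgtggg
Tnfaip3: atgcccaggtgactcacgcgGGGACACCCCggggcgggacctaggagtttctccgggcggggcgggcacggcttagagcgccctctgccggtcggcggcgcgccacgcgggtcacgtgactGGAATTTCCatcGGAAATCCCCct
Nfkb2: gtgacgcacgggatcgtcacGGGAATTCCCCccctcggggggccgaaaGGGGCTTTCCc
Rel: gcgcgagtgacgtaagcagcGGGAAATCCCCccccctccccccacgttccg
The Nfkbia stretch is chr12:55492648-55492878 on the minus strand. The Nfkbie stretch is chr17:45555574-45555652 on the plus strand. The Tnfaip3 stretch is chr10:19015411-19015555 on the minus strand. The Nfkb2 stretch is chr19:46304678-46304736 on the plus strand, and the Rel stretch is chr11:23771031-23771081 on the minus strand. All lie upstream of an annotated transcription start and hold no transcribed base of that transcript.

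At 48 hours the 9 genes were lower on average in transgenic than in control macrophages, most of all the inhibitor gene Nfkbie, but no gene passed the test. All 9 had a lower mean in the transgenic pools, or 8 of 9 with quantile normalization or with the actin ratio as a covariate and 7 of 9 without transgenic 48 hours pool 2, where 46.1% of all 13070 genes had a lower mean. For 6 of the 9 (Nfkb2, Rela, Nfkbia, Nfkbie, Tnfaip3 and Bcl3) both transgenic pools lay below both control pools, which 16.1% of all genes did. That count is for the probe sets used. The pools overlapped on the other probe set of Nfkb2 and of Tnfaip3, and on some others of Nfkbia. The median log2 difference of the 9 genes was −0.28, and that of all genes 0.04. Adding the actin ratio as a covariate gave −0.09, and without control 48 hours pool 1 it was −0.15. Within groups this ratio differed most between the control pools at 4 weeks (7.99 and 37.0). Values with this covariate therefore rest mostly on that pair, also at 48 hours. Differences are on the scale of log2(signal + 30.8) and understate the change of genes with low signals. In limma, with 1 estimate of the spread over the 4 groups, 0 of the 9 and 0% of all genes passed an adjusted p of 0.05, and 0 of the 9 and 4.07% of all genes had an unadjusted p under 0.05. In pools of sorted cells, fewer cells of a type and less RNA per cell cannot be told apart.

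Nfkbie encodes IkB epsilon, an inhibitor that NF-kB itself induces and that holds dimers of c-Rel and p65. Its signal was 11408 and 9752 in control against 4998 and 5662 in transgenic pools at 48 hours. The groups did not overlap, and each transgenic pool was well below either control pool. The log2 difference was −0.98 (SE 0.45), with an adjusted p of 0.976 in limma. The probe set used is of a type that can share sequence with other genes. The gene's other probe set gave −0.82, also without overlap. Leaving out 1 pool at a time gave −1.10 to −0.87, and the actin ratio as a covariate gave −0.67.

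The remaining inhibitors differed less at 48 hours. Nfkbia encodes IkB alpha, the classical inhibitor and a rapid target of NF-kB, and gave 87357 and 69057 in control against 60468 and 65277 in transgenic pools. Its pools did not overlap on the probe set used. The log2 difference was −0.31 (SE 0.17), with an adjusted p of 0.976 in limma, but quantile normalization gave −0.05. Tnfaip3 encodes A20, an enzyme that edits ubiquitin chains and so damps the signal, and gave 16047 and 17708 in control against 12995 and 14817 in transgenic pools. Bcl3, a nuclear member of the IkB family that works with p50 and p52, gave 2221 and 1691 in control against 1634 and 1587 in transgenic pools. Neither overlapped, with log2 differences of −0.28 (SE 0.29) for Tnfaip3 and −0.26 (SE 0.33) for Bcl3, each smaller than its SE. With the actin ratio as a covariate these were −0.09 and −0.08, and Bcl3 was −0.07 without control 48 hours pool 1. Nfkbiz encodes a nuclear IkB protein that helps to switch on secondary inflammatory genes, and gave 39282 and 38888 in control against 42529 and 35007 in transgenic pools. Its transgenic pools lay on either side of the control pools. The other probe sets of Nfkbiz gave log2 differences of −0.45 and −0.03, both with overlapping pools.

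Among the subunits at 48 hours, Nfkb2 and Rela did not overlap between genotypes, and Rel and Relb did. Nfkb2 encodes p100, the precursor of p52 in the alternative branch of the pathway, and gave 849.8 and 743 in control against 532 and 677 in transgenic pools. Its log2 difference was −0.39 (SE 0.44), or −0.05 with the actin ratio as a covariate. Rela, the p65 subunit that activates transcription, gave 3295 and 2444 in control against 2385 and 2441 in transgenic pools. The lower control pool was level with the higher transgenic one, and the log2 difference of −0.23 (SE 0.25) was −0.02 without control 48 hours pool 1. Rel, which encodes c-Rel, gave 2022 and 1659 in control against 956 and 1765 in transgenic pools. Relb, the usual partner of p52, gave 603 and 614 in control against 625 and 484 in transgenic pools. In both genes 1 transgenic pool lay within or above the control pools and the other below them.

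**Figure D1:**
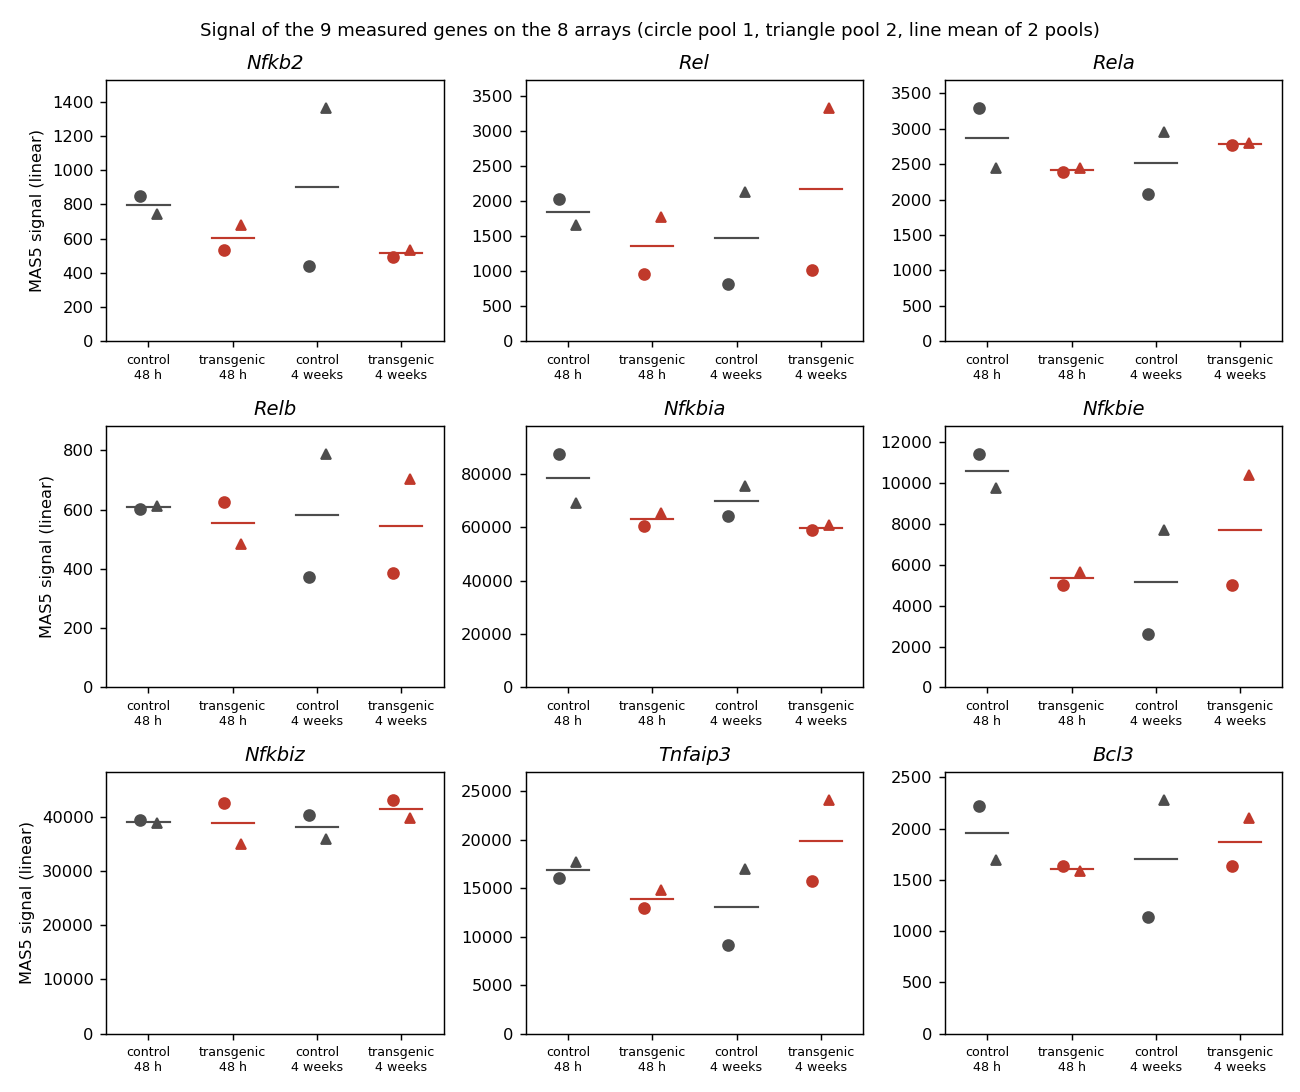
MAS5 signal (y axis, linear, from 0) of the 9 measured genes in the 4 groups (x axis), with a circle for pool 1, a triangle for pool 2 and a line at the mean of the 2 pools. Nfkbie goes from 11408 and 9752 units in control to 4998 and 5662 in transgenic pools at 48 hours, while at 4 weeks the pools of 1 group lie far apart for most genes.

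Markers of some other cell types differed in level between genotypes at 48 hours. All 7 measured neutrophil genes had lower means in transgenic pools (median log2 difference −1.20), 5 of them without overlap, where 16.1% of all genes were lower without overlap. The signal summed over the 8 neutrophil genes with a probe set was 10617 and 12974 in control against 4806 and 5625 in transgenic pools. Of 9 measured genes of luminal epithelium 7 had higher means (median 1.26), all 7 without overlap, and 1 gene was lower without overlap. The signal summed over 10 genes of this list was 2175 and 2138 in control against 6190 and 7599 in transgenic pools. All 7 fibroblast genes had higher means (median 0.43), 0 of them without overlap. Their summed signal was 36602 and 84832 in control against 69654 and 74041 in transgenic pools. Of 6 dendritic cell genes 5 had lower means (median −0.45), 1 of them without overlap. Their summed signal was 4516 and 3404 in control against 3659 and 2630 in transgenic pools. None of these marker genes passed an adjusted p of 0.05. Macrophage markers were higher for 6 of 10, 0 of them without overlap, and lower for 4, 2 of them without overlap. These 2 were Csf1r (−0.26) and Cd14 (−0.35). The 19 immediate early and heat shock genes, which respond to handling, were higher for 9 (5 without overlap) and lower for 10 (4 without overlap). The part of these cells in the differences of the 9 genes was not tested.

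At 4 weeks the 9 genes had no common direction, and the answer turned on single pools. The transgenic mean was higher for 6 genes (Rel, Rela, Nfkbie, Nfkbiz, Tnfaip3 and Bcl3) and lower for Nfkb2, Relb and Nfkbia, where 48% of all genes were higher, and with the actin ratio as a covariate 8 were higher. The median log2 difference was 0.16 (all genes −0.02). In limma 0 of the 9 and 0% of all genes passed an adjusted p of 0.05, and 0 of the 9 and 5.06% of all genes had an unadjusted p under 0.05. The median was −0.20 with 7 of 9 genes lower without control 4 weeks pool 1. It was 0.45 with 8 of 9 higher without control 4 weeks pool 2, and 0.03 with 5 higher and 4 lower without transgenic 4 weeks pool 2.

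With the probe sets used, Nfkbia was the gene of the 9 without overlap at 4 weeks. It gave 64056 and 75515 in control against 58778 and 60728 in transgenic pools, and 17.2% of all genes were lower without overlap. Its log2 difference was −0.22 (SE 0.17), with an adjusted p of 0.986 in limma. It was −0.34 without control 4 weeks pool 1, −0.10 without control 4 weeks pool 2 and −0.24 without transgenic 4 weeks pool 2, and the mean over its 5 probe sets gave −0.05. Of the probe sets of Nfkbia not used, 1 was also lower without overlap and 1 was higher without overlap. The latter gave 11666 and 11463 in control against 12361 and 12651 in transgenic pools. The differences of the other 8 genes ran from −0.57 for Nfkb2 to 0.67 for Nfkbie. Both ends changed sign without 1 pool: Nfkb2 was 0.21 without control 4 weeks pool 2, and Nfkbie −0.10 without control 4 weeks pool 1. Nfkbie was 0.15 without transgenic 4 weeks pool 2.

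Pools of 1 genotype lay far apart at 4 weeks. Nfkbie gave 2635 and 7716 in control against 5008 and 10366 in transgenic pools, and Tnfaip3 gave 9146 and 16969 in control against 15759 and 24085 in transgenic pools. In both inhibitors pool 1 was the lower in each genotype, and the higher control pool lay above the lower transgenic one. Rel gave 818 and 2128 in control against 1022 and 3327 in transgenic pools, and Relb gave 375 and 788 in control against 386 and 704 in transgenic pools. The same order of pools held for both subunits, and the transgenic pools of Relb fell inside the control range. Bcl3 gave 1136 and 2278 in control against 1638 and 2109 in transgenic pools, and Rela gave 2081 and 2954 in control against 2771 and 2794 in transgenic pools. The transgenic pools of both lay between the control pools. Nfkb2 gave 440 and 1364 in control against 495 and 535 in transgenic pools, again inside the control range. Nfkbiz gave 40224 and 35816 in control against 43012.5 and 39700.2 in transgenic pools, with a small overlap.

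At 4 weeks too, all 7 measured neutrophil genes had lower transgenic means (median −1.04). The signal summed over the 8 listed genes with a probe set was 5028 and 17293 in control against 3733 and 2609 in transgenic pools, so the highest level was on the array with the actin ratio of 37.0. Summed signals of 6 dendritic cell genes were 2732 and 3826 in control against 4766 and 6933 in transgenic pools, although 3 of these genes were higher and 3 lower. The part of either in the values of the 9 genes was not tested.

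**Figure D2:**
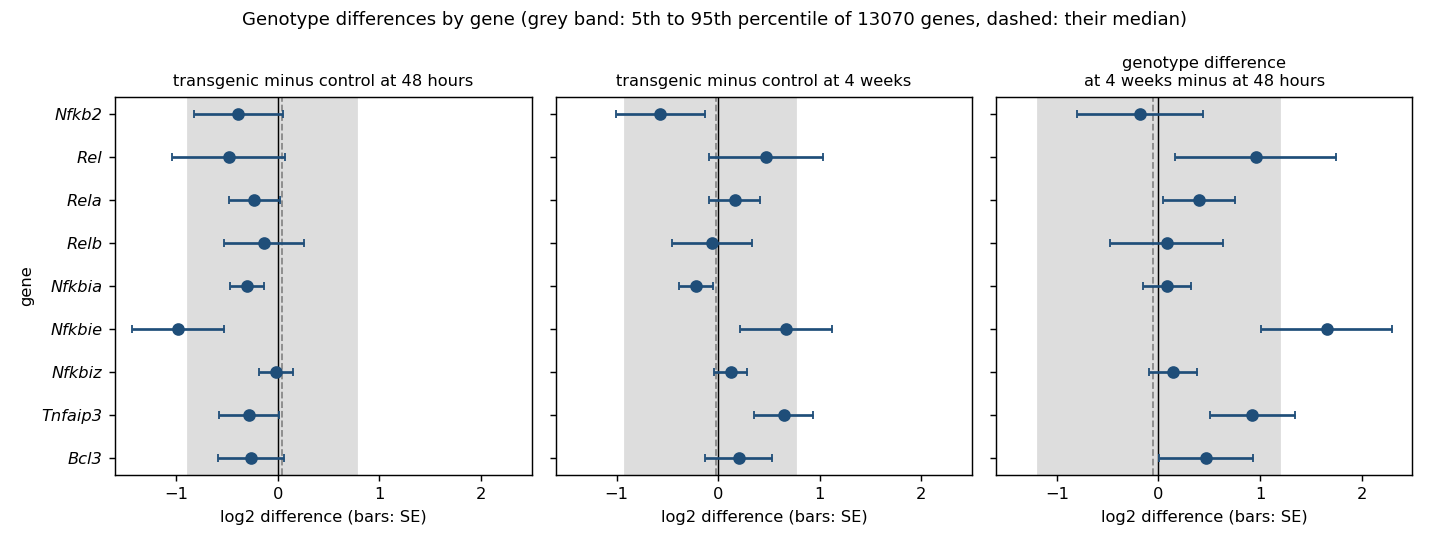
Log2 difference (x axis, bars SE, 2 pools a group) for each of the 9 genes (y axis) between genotypes at 48 hours, at 4 weeks, and between these differences; the grey band spans the 5th to 95th percentile of 13070 genes and the dashed line is their median. All 9 points lie below 0 at 48 hours, lowest for Nfkbie at −0.98, and they lie on both sides of 0 at 4 weeks.

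The genotype difference was higher at 4 weeks than at 48 hours for 8 of the 9 genes, or 7 with quantile normalization, where 45.7% of all genes were higher. The median of this change was 0.40, and that of all genes −0.06. It ran from 0.15 without control 4 weeks pool 1 to 0.65 without control 4 weeks pool 2, and was 0.18 without control 48 hours pool 1 and 0.20 without transgenic 4 weeks pool 2. Nfkbie had the highest value, 1.65 (SE 0.64), and Tnfaip3 had 0.92 (SE 0.42), both with an adjusted p of 0.988 in limma. They were 2 of the 9 with a higher value at an unadjusted p under 0.05, which 2.17% of all genes had, while 4.74% had one in either direction and 0% passed the adjusted threshold. Without control 4 weeks pool 1 the values were 0.89 for Nfkbie and 0.48 for Tnfaip3, with 5 of the 9 genes higher. Without control 4 weeks pool 2 they were 2.42 and 1.37 with all 9 higher, and without transgenic 4 weeks pool 2 they were 1.13 and 0.62 with 7 higher. The sign held in these 3 fits for both genes, and the adjusted p of Nfkbie was 0.952, 0.312 and 1 in turn.

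The comparisons between times use the same arrays again. With all mice 6 weeks old when treated, longer treatment goes with older mice, so age and length of treatment cannot be told apart. In control pools all 9 genes had a lower mean at 4 weeks than at 48 hours, or 8 with quantile normalization or the actin ratio as a covariate, where 45% of all genes were lower. Nfkbie, from 11408 and 9752 to 2635 and 7716, did not overlap (13.7% of all genes were lower without overlap), with a log2 difference of −1.22 (SE 0.45) and an adjusted p of 0.749 in limma. It was the 1 gene of the 9 lower at an unadjusted p under 0.05, as 2.79% of all genes were, and 6.14% had one in either direction. It was −0.45 without control 4 weeks pool 1 and −1.99 without control 4 weeks pool 2. Without control 4 weeks pool 1, 6 of the 9 genes had a higher mean at 4 weeks. None of the 9 passed an adjusted p of 0.05, against 0.00765% of all genes, which is the single gene F5, coagulation factor V.

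In transgenic pools 6 of the 9 genes had a higher mean at 4 weeks, where 48.4% of all genes did, with a median of 0.20. Without transgenic 4 weeks pool 2, 4 were higher and 5 lower, with a median of −0.09. Tnfaip3, Rela and Bcl3 did not overlap, against 14.1% of all genes higher without overlap. Their log2 differences were 0.49 (SE 0.29), 0.20 (SE 0.25) and 0.20 (SE 0.33). Without transgenic 4 weeks pool 2 they were 0.18, 0.20 and 0.03. In limma 0 of the 9 and 0% of all genes passed an adjusted p of 0.05, and 2.2% of all genes had an unadjusted p under 0.05.

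Over both times, with time as a covariate, Nfkbia was the gene of the 9 that was lower in transgenic pools at each time without overlap, which 2.77% of all genes were. This held for the probe set used and not for the other probe sets of the gene. With the probe set used the log2 difference was −0.26 (SE 0.11), with an adjusted p of 0.958 in limma. Its unadjusted p was under 0.05, as for 2.51% of all genes in this direction and 4.6% in either, and 0% passed the adjusted threshold. Leaving out 1 array at a time gave −0.32 to −0.19, and −0.28 without transgenic 4 weeks pool 2. Quantile normalization gave −0.06. The other 8 genes ran from −0.48 for Nfkb2 to 0.18 for Tnfaip3. Tnfaip3 was −0.09 without control 4 weeks pool 1 and −0.03 without transgenic 4 weeks pool 2, and Nfkb2 was −0.77 without the former and −0.15 without control 4 weeks pool 2.

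Probe sets of 1 gene gave a second reading of 5 genes. At 48 hours each probe set of these genes had a lower transgenic mean except the second of Tnfaip3, at 0.10, whose signals were 91.8 to 203 units. At 4 weeks both probe sets of Nfkbie (0.67 and 0.38) and both of Tnfaip3 (0.64 and 0.78) were above 0. The second of Tnfaip3 was higher without overlap, at its low signals. The probe sets of Nfkb2 pointed in opposite directions at 4 weeks, −0.57 for the one used, of a type that can share sequence with other genes, and 0.44 for the other. The 3 of Nfkbiz gave 0.12, −0.18 and −0.33, the last lower without overlap, and the 5 of Nfkbia ran from −0.27 to 0.14. So the direction at 4 weeks depended on the probe set for Nfkb2, Nfkbiz and Nfkbia.

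**Figure D3:**
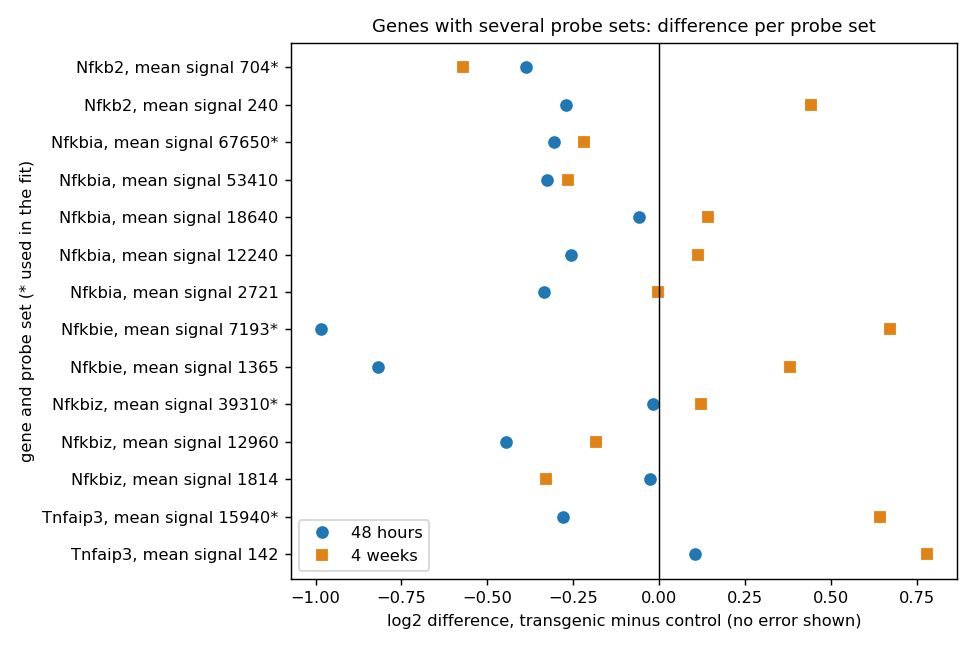
Log2 difference between transgenic and control pools (x axis, no error shown) at 48 hours (circles) and 4 weeks (squares) for each probe set of the 5 genes with several (y axis: gene and mean signal, a star marks the probe set used). Both Nfkbie probe sets lie below 0 at 48 hours and above 0 at 4 weeks, while those of Nfkb2 lie at −0.57 and 0.44 at 4 weeks.

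Most of the 9 genes were high or low on the same arrays, within groups as well as between them. Relative to each gene's mean over the 8 arrays, the median of the 9 was highest on control 48 hours pool 1 (0.34), with all 9 genes above their mean, and lowest on control 4 weeks pool 1 (−0.56), with 1 gene above. The pools of transgenic macrophages at 4 weeks stood at −0.19 and 0.27. Correlations over the 8 arrays with the mean of the other 8 genes were 0.946 for Bcl3, 0.91 for Nfkbie, 0.829 for Rel, 0.52 for Nfkbia and −0.445 for Nfkbiz. Of the 36 pairs of genes 28 had a correlation above 0, with a median of 0.595 against 0.004 over pairs of all genes. These are descriptions over arrays that share their scaling. The SD of log2 signals within groups exceeded that between group means for 8 of the 9 genes, Nfkbia being the exception (0.152 within, 0.168 between). The share over all genes is not given here, so this count does not set the 9 genes apart. Over all genes the median SD was 0.367 within groups and 0.375 over the 8 arrays. The highest signal was 4.33 times the lowest for Nfkbie, 4.07 times for Rel and 1.23 times for Nfkbiz, with a median of 2.33 over all genes.

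The profiles most like the mean of the 9 genes among 13061 other genes over the 8 arrays were those of Cadm1 (r = 0.989), Mapkapk3 (0.987), Mllt6 (0.977), Epha5 (0.968) and Skil (0.968). Skil, for example, gave 10584 and 8877 in control against 4450 and 6542 in transgenic pools at 48 hours, then 3870 and 11170 in control against 5019 and 12053 in transgenic pools at 4 weeks. Like 7 of the 9 genes, it was lowest on control 4 weeks pool 1, but it was picked for its likeness to these genes. The shared low array is therefore no separate result. Epha5 gave 62.8 units on that array, below the array's median of 102. The neutrophil list was highest on control 4 weeks pool 2 (1.08 above its mean), where 8 of the 9 genes were above their mean. On the control pools at 48 hours it stood at 0.51 and 0.52, with 9 and 6 of the 9 genes above. It was lowest on transgenic 4 weeks pool 2 (−0.79), with 7 of the 9 genes above. A link between the list and the 9 genes was not tested.

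**Figure D4:**
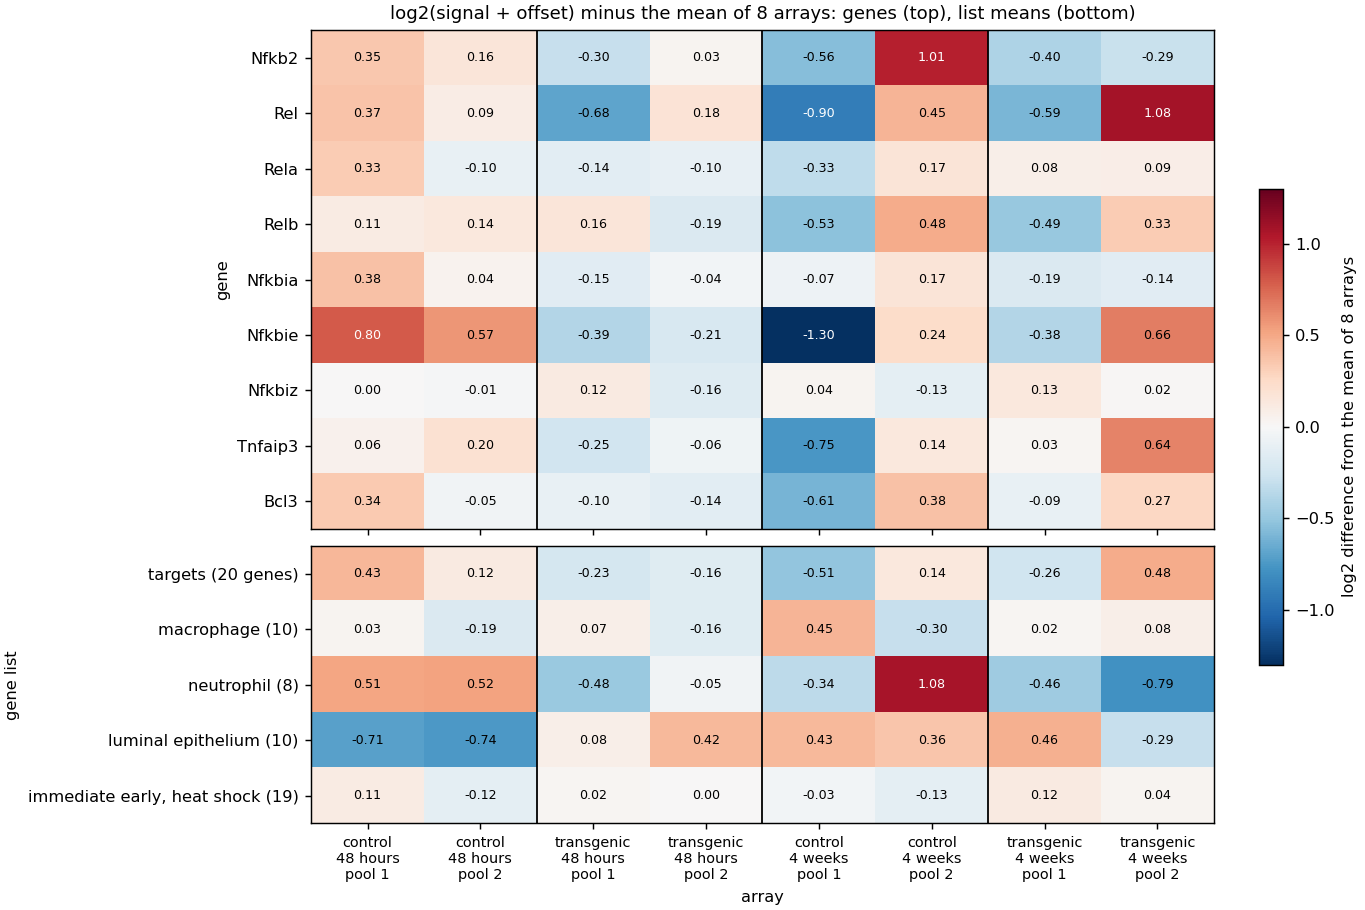
Log2 signal minus the mean of the 8 arrays (colour and printed value) for the 9 genes (top) and the means of 5 gene lists (bottom), by array (x axis). Control 4 weeks pool 1 is low for most genes and the 20 target genes are low there too (−0.51). The mean of the macrophage markers is high there (0.45), but the markers differ. Fcgr1 has its highest signal of the 8 arrays there (7884) and Adgre1 its lowest (9842).

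The other genes of the pathway were read from 5 lists, with 68 of 75 genes measured, and 0 of the 68 passed an adjusted p of 0.05 in limma in any comparison between genotypes. At 48 hours 44 of the 68 were lower in transgenic pools, 29 of them without overlap, where 46.1% of all genes were lower and 16.1% lower without overlap. The 20 target genes, which NF-kB is known to switch on, stood lowest, with 19 lower, 16 of them without overlap, and a median of −0.39. Their median was −0.23 without control 48 hours pool 1. Il12b, a subunit of the cytokine IL-12, gave 166 and 177 in control against 84.2 and 22.1 in transgenic pools, the latter below the medians of their arrays (96.4 and 105.8), so no size is given. Gadd45b, a stress-response gene, had a log2 difference of −0.41 (SE 0.18). Ptgs2, the inducible enzyme of prostaglandin synthesis, gave 9579 and 8703 in control against 4839 and 6452 in transgenic pools, a difference of −0.71 (SE 0.33), or −0.46 as the mean of its probe sets. The lists by role were closer to balance, with 7 of 12 receptors and ligands, 7 of 13 adaptors, 4 of 10 kinases and 7 of 13 other inhibitors lower.

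Single genes of those lists had larger differences at 48 hours. Tnip1, which encodes a partner of A20, gave 2585 and 2081 in control against 916 and 1217 in transgenic pools with a fitted log2 difference of −1.11 (SE 0.29) and an adjusted p of 0.976 in limma. Malt1, a protease and scaffold of receptor signalling, gave 1516 and 1141 in control against 524 and 653 in transgenic pools, a difference of −1.13 (SE 0.36) with an adjusted p of 0.976 in limma. Neither overlapped. Map3k14, the kinase of the alternative branch, had −0.86 (SE 0.37), or −0.52 without transgenic 48 hours pool 2. Traf1, an adaptor of TNF receptors, had −0.83 (SE 0.33), or −0.51 without control 48 hours pool 1.

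At 4 weeks 18 of the 20 target genes were higher in transgenic pools, 5 of them without overlap (14.7% of all genes were), with a median of 0.29. The median was −0.05 without control 4 weeks pool 1 and −0.07 without transgenic 4 weeks pool 2, with 10 genes higher and 10 lower in each. It was 0.42 without control 4 weeks pool 2 and 0.71 without transgenic 4 weeks pool 1. Il1b, an inflammatory cytokine and activator of the pathway, gave 9627 and 14295 in control against 15582 and 28089 in transgenic pools without overlap, at a log2 difference of 0.83 (SE 0.29). It was 0.41 without transgenic 4 weeks pool 2, 0.55 without control 4 weeks pool 1 and 1.26 without transgenic 4 weeks pool 1. Ikbke, a kinase related to the IkB kinases, gave 213 and 283 in control against 53.9 and 55.4 in transgenic pools. The transgenic signals lie below the medians of their arrays (105.3 and 100.6), so no size is given, and the adjusted p was 0.675 in limma. From 48 hours to 4 weeks the genotype difference of all 20 targets moved upward, with a median change of 0.66. That median was 0.28 with 18 of 20 upward without control 4 weeks pool 1, and 0.29 with 17 upward without transgenic 4 weeks pool 2. It was 1.09 without control 4 weeks pool 2 and 1.17 without transgenic 4 weeks pool 1.

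**Figure D5:**
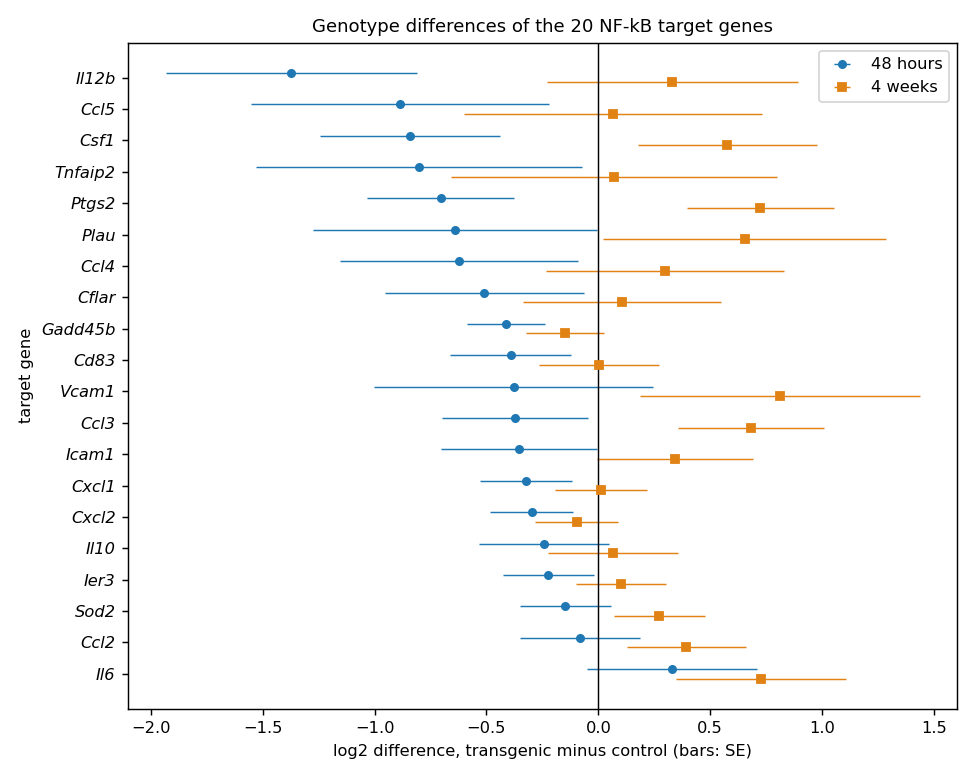
Log2 difference between transgenic and control pools (x axis, bars SE, 2 pools a group) for the 20 target genes (y axis) at 48 hours (circles) and 4 weeks (squares). At 48 hours 19 of the 20 points lie below 0, and at 4 weeks 18 lie above 0.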

How the data were processed

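Signals were read from the deposited value table of 8 arrays. Per the submitters' processing notes the authors used MAS5, with no version given; the deposited signal intensities are linear (0.3 to 159546.7), and the mean without the outer 2% of probe sets was 500 on each array. Of 45101 probe sets 34945 had 1 symbol in the platform annotation, 932 several, 9160 none and 64 were controls. Probe sets with 1 symbol and a signal above the array median on at least 2 arrays were kept, with 1 per gene (highest mean signal), giving 13070 genes. Values were tested as log2(signal + 30.8) with limma 3.58.1 in R 4.3.3 (trended prior, 4 residual degrees of freedom, two-sided, Benjamini-Hochberg over all genes, threshold 0.05), and the scripts were tested on simulated data. Full statistics are printed for genes whose pools did not overlap or whose unadjusted p was under 0.05, for up to 3 genes with the smallest p per pathway list, and for the 5 most similar profiles. The members, lists and tests were chosen with earlier results of these data known. Alternatives covered scaling, offset, filter, probe set choice, model and left-out pools. No detection calls were used here.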

Additional observations from a re-analysis of the deposited data

How the results depend on the processing

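None of the printed differences of the 9 genes passed the threshold in the alternatives run. Signs changed for Nfkb2 at 4 weeks (0.175 with the actin ratio as a covariate, 0.214 without control 4 weeks pool 2), Nfkb2 over both times (0.042 with that covariate), Nfkbie at 4 weeks (−0.098 without control 4 weeks pool 1) and Tnfaip3 over both times (−0.089 without control 4 weeks pool 1, −0.033 without transgenic 4 weeks pool 2). Leaving out 1 pool at a time, these ran from −1.354 to 0.214 for Nfkb2 and −0.098 to 1.441 for Nfkbie at 4 weeks, and from −0.089 to 0.312 for Tnfaip3 over both times. The number of genes called between times in control pools, 1, was 0 with a filter at the 75th percentile, the mean of all probe sets, no trend, array weights, or only the arrays compared. It was 2 with probe sets without a shared-target suffix, 4 with the replicate block (pool number) and 7 with the actin ratio as a covariate. At 4 weeks the count of genes called between genotypes, 0, was 2 with the replicate block and 1 with only the arrays compared, and at 48 hours it was 1 with only the arrays compared. Deviations of pools with the same number correlated at −0.085 to 0.134, so the numbers were not taken as pairs. Leaving out 1 pool at a time gave 0 to 1 genes called at 48 hours, at 4 weeks, for the change of the genotype difference, between times in transgenic pools and over both times, and 0 to 7 between times in control pools. The median of the 9 genes ran from −0.199 to 0.449 at 4 weeks and from −0.755 to 0.057 between times in control pools. Such a fit assumes that a lone pool varies like the other groups. The cause was not tested. The alternatives for the target list, the named pathway genes and the genes with changed signs were chosen after seeing the data. Without detection calls, low signals cannot be told from background, and 2 pools a group limit every comparison.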
